A study of Rattus norvegicus with 23 samples.

Results

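*Abcg5*, *Hapln1*, *Sertm1*, *Igfbpl1*, *Drd4* and *H19* are 6 of the 16544 rat genes named on the arrays, and all 6 were among the 15879 genes that passed the filter on low signals. They were chosen by their measured signals, because the signal in the left atrium (LA) exceeded that in the ventricles (V) and in the sinoatrial node region (SA) or the pulmonary vein (PV) on these same arrays. The differences between LA and these regions therefore chose the genes and are given here as a description, with no test. The pulmonary artery (PA) did not enter the choice by name, but the genes were taken as high in LA alone, so LA against PA is described in the same way. The left ventricle (LV) against the right ventricle (RV) was not used in the choice and was tested. The choice set no threshold on the size of a difference.

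Regional RNA was measured on 23 single-color arrays, 4 each for LA, LV, SA, PV and PA and 3 for RV. All animals were Wistar males, 8 to 11 weeks old. LA was the part next to PV, RV was the free wall, every LV mass was cut into 3 samples, and each SA sample joined tissue from 2 rats. The 4 LV arrays can therefore come from fewer than 4 rats, which bears on LV against RV. The labels do not say which samples shared an animal, so p-values measure only the spread between these samples, which may be partly technical.

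The left atrium receives oxygenated blood from the pulmonary veins, whose walls carry a sleeve of atrial muscle in rodents. Atrial myocytes of the left side share most of their contractile and secretory genes with those of the right side. The genes described here have no common pathway. *Abcg5* encodes a subunit of a sterol exporter, *Hapln1* a link protein of the hyaluronan matrix, *Sertm1* a small membrane protein of little-known function, *Igfbpl1* a secreted protein related to the insulin-like growth factor (IGF) binding proteins, and *Drd4* a D2-like dopamine receptor. *H19* is an imprinted long non-coding RNA that lies beside *Igf2*, is abundant in fetal tissue and is the precursor of miR-675.

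Signals are given as log2(signal + 1) after scaling each array to a common 90th percentile. Probes are set against themselves across regions and not against probes of other genes. Agilent's flag for a signal well above background was set for 58.6% to 79.8% of the probes of an array. The lowest scaled signal so flagged lay between 3.55 and 5.34, so levels under about 5 are dim on part of the arrays. The arrays lay in 2 rows on each slide, and this share was 72.7% to 79.8% on the 11 arrays of row 1 against 58.6% to 69.4% on the 12 arrays of row 2. LA had 3 of its 4 arrays in row 1, SA and PV had 1 of 4 each, LV and PA had 2 of 4, and RV had 2 of 3. In LA, all 6 atrial myocyte markers examined were well above background on every array. Of them, 5 were higher in LA than in V in the limma fit, while all 5 ventricular markers were lower. None of the 6 atrial markers was called against SA or PV, and all 6 were higher than in PA. Of the ventricular markers, 2 were higher in LA than in SA, 1 higher and 1 lower than in PV, and 3 higher and 1 lower than in PA. Of 8 mesothelial and epicardial markers, 6 were higher in LA than in V, 6 higher than in SA and 6 higher than in PV. Against PA, 5 of the 8 were higher in LA and 2 lower (*Tbx18* and *Calb2*). Of these, *Msln*, which marks the mesothelium that covers the heart, stood at 13.70 ± 0.17 in LA (SD, n = 4), against 8.92 ± 1.34 in LV (n = 4) and 11.41 ± 0.50 in RV (n = 3). SA came to 12.05 ± 0.40 (n = 4), PV to 11.90 ± 0.70 (n = 4) and PA to 11.60 ± 0.88 (n = 4). The log2 of the summed signal of the 8 markers was 14.30 to 14.58 in LA. Elsewhere it ran from 10.12 to 11.42 (LV), 11.86 to 12.55 (RV), 12.43 to 13.28 (SA), 12.02 to 13.21 (PV) and 12.61 to 13.92 (PA). None of the 8 was dim on any LA array. Of 5 smooth muscle markers, 2 were lower in LA than in V, 3 lower than in SA, 3 lower than in PV and 5 lower than in PA. *Myh11*, the smooth muscle myosin heavy chain, stood at 10.39 in LA, 12.69 in SA and 13.62 in PV. The log2 of the summed smooth muscle signal was 14.28 to 14.57 in LA, 14.29 to 14.61 in LV, 14.47 to 14.60 in RV, 14.99 to 15.57 in SA, 15.58 to 16.06 in PV and 18.52 to 18.82 in PA. Of 4 erythroid markers, 3 were higher and 1 lower in LA than in V, 2 lower than in SA and 2 lower than in PV. Of 4 adipocyte markers, 2 were higher and 1 lower in LA than in V, 1 lower than in SA, 2 lower than in PV, and 2 higher and 2 lower than in PA. *Ucp1*, the uncoupling protein of brown fat, had means of 5.12 in LA, 12.18 in PA, 11.85 in SA and 9.98 in PV. The log2 of the summed adipocyte signal was 13.55 to 14.15 in LA, 14.13 to 14.75 in LV, 13.95 to 14.15 in RV, 14.06 to 14.67 in SA, 14.10 to 14.52 in PV and 13.26 to 14.02 in PA. Of 5 endothelial and endocardial markers, 1 was higher and 2 lower in LA than in V, none was called against SA or PV, and 3 were higher than in PA. Their summed signal was 14.43 to 14.79 in LA, 15.15 to 15.42 in LV and 15.12 to 15.20 in RV. Of 7 valve and cartilage markers, 1 was higher and 2 lower in LA than in V, and 1, 1 and 2 were lower than in SA, PV and PA. These lists changed in part in the same contrasts as the 6 genes, and their part in the results was not tested. In bulk tissue, fewer cells of a type and less RNA per cell cannot be told apart.

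**Figure D1:**
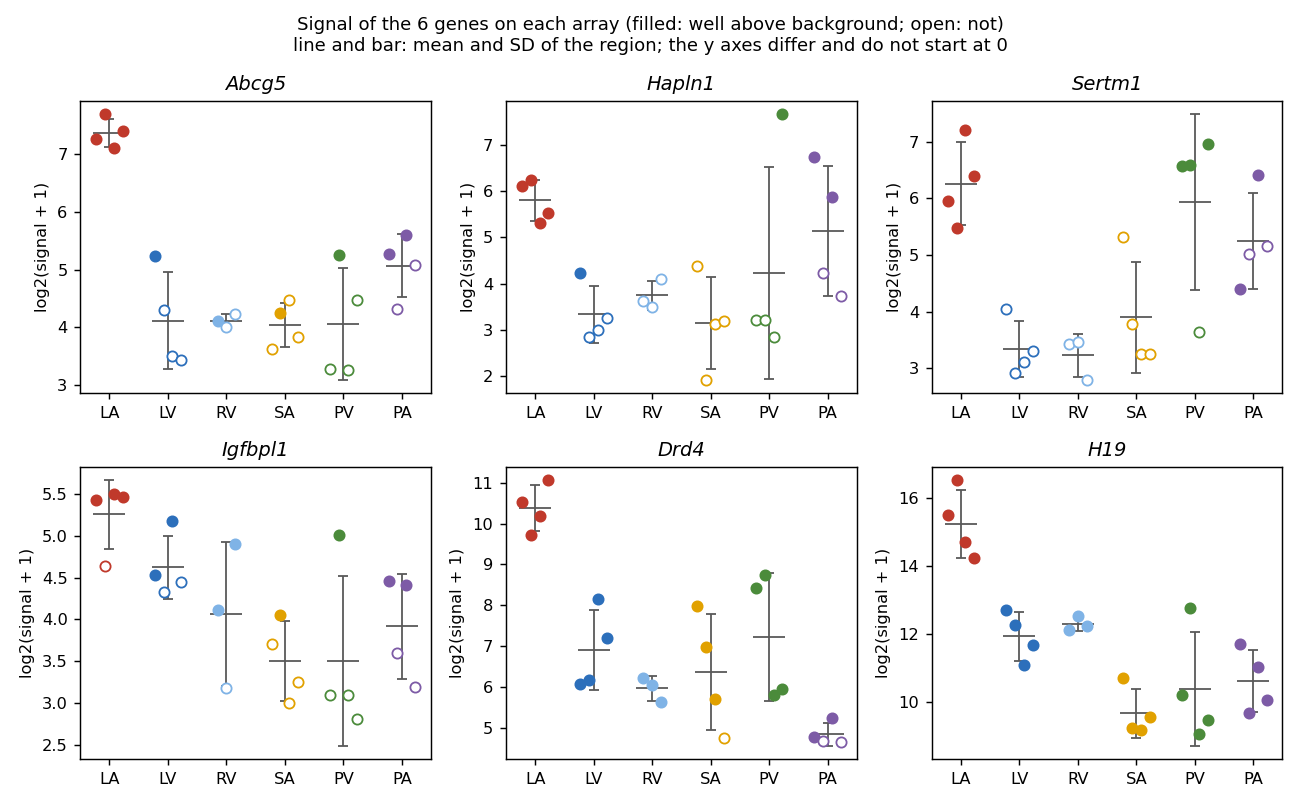
Each panel plots log2(signal + 1) of 1 gene on the 23 arrays, by region; filled points were well above background, open points were not, and the line and bar give the mean and SD. The 4 LA arrays sit apart from every other array for *Abcg5*, *Drd4* and *H19*, while PV or PA arrays reach into the LA range for *Hapln1* and *Sertm1* and LV, RV and PV arrays for *Igfbpl1*.

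*Drd4* encodes a receptor that couples to inhibitory G proteins and lowers cyclic AMP on binding dopamine. It lies on the plus strand of chromosome 1 from 205825937 to 205829124 (build GRCr8) and had 2 probes. In LA replicates 1 to 4 its signal was 10.53, 9.72, 10.19 and 11.07. It was 6.08, 6.16, 8.16 and 7.21 in LV and 6.23, 6.05 and 5.64 in RV. Every LA array stood above every ventricular array. The signal was 7.99, 6.99, 5.70 and 4.76 in SA and 8.42, 8.74, 5.81 and 5.95 in PV. PV fell into a high pair, replicates 1 and 2, and a low pair, replicates 3 and 4, and even the high pair stayed below the lowest LA array by 0.98. PA was the lowest region at 4.78, 4.69, 5.24 and 4.66, and was well above background on 2 of its 4 arrays. On average LA exceeded V by 3.94 and PV by 3.15, which are 15.3-fold and 8.85-fold. LA exceeded SA by 4.01 and PA by 5.54 with the signals as read, but SA replicate 4 and 2 PA arrays were dim. With each dim array raised to the lowest signal that its scan called well above background, these differences were 3.90 and 5.36. In the order of means LA led with 10.38 ± 0.57 (SD, n = 4), followed by PV at 7.23 ± 1.57 (n = 4), LV at 6.90 ± 0.98 (n = 4), SA at 6.36 ± 1.42 (n = 4), RV at 5.98 ± 0.31 (n = 3) and PA at 4.84 ± 0.27 (n = 4). PV, LV, SA and RV overlapped from neighbor to neighbor, and only LA and PA stood clear of the region next to them. The probes gave the same picture: mean LA signals were 10.38 and 9.68 and mean PV signals 7.17 and 6.99. LA exceeded PV by 1.86 among the arrays of row 1 and by 2.99 among those of row 2.

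The window from 250 bases before to 50 after the start of *Drd4* is shown because, of the 5 genes with a window, this one alone was well above background on all 7 ventricular arrays. It comes from RefSeq (GRCr8), plus strand, chr1:205825687-205825986, and holds none of the 5 motifs searched.
Drd4 window: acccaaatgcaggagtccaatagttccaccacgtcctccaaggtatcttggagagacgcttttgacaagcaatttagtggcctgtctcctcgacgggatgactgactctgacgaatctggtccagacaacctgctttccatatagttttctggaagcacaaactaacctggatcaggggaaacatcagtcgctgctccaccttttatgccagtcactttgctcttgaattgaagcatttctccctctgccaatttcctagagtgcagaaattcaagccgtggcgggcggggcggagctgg

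Both strands of each window were searched for 5 motifs, none of which overlapped another in the windows shown. The T-box motif was taken as AGGTGT and was held by 13.6% of 33469 rat windows of the same 300 bases. For GATA factors the letters AGATAA were used, held by 11.6% of windows. For NKX2-5 the search took TNAAGTG, held by 11.5%. The MEF2 motif was held by 3.84%, and the TATA box, as TATAAA, by 14.2%. Windows were found for 5 of the 6 genes. Besides *Drd4*, those of *Hapln1* and *Igfbpl1* held no match. A match is a description of the letters and not evidence of a bound site.

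Among 22 tested genes of dopamine synthesis, transport and signaling, 6 were higher and 5 lower in LA than in V, 2 higher and 3 lower than in SA, and 2 higher and 3 lower than in PV. Over 39 settings, lower genes numbered 3 to 6 against V, 3 to 5 against SA and 2 to 5 against PV, and higher genes 1 to 3 against SA and against PV. Over all 15879 genes, limma called 17.2% higher and 18.8% lower in LA than in V, 8.36% and 7.15% against SA, and 6.65% and 7.12% against PV. The list's median difference was -0.0045 against V, -0.058 against SA and -0.023 against PV, beside -0.085, -0.0033 and 0.037 over all genes. *Gnao1*, an alpha subunit of the G proteins used by D2-like receptors, was higher in LA than in V by 1.63 (SE 0.12, limma adjusted p = 4.19e-09) but lower than in SA (-1.32, adjusted p = 3.59e-06) and than in PV (-0.76, adjusted p = 9.48e-04). *Gch1*, which makes the cofactor of tyrosine hydroxylase, was lower in LA than in V (-1.32, SE 0.14, limma adjusted p = 5.81e-07), SA (-0.78, adjusted p = 0.00248) and PV (-0.96, adjusted p = 4.75e-04). *Ddc*, which converts DOPA to dopamine, was lower in LA than in SA (-0.91, limma adjusted p = 0.00111). Of the same list, *Gnai2* was higher in LA than in SA (0.45, limma adjusted p = 5.27e-04) and lower than in V (-0.23, adjusted p = 0.0126). *Adcy5* was higher in LA than in V (0.71, limma adjusted p = 0.00411) and PV (0.83, adjusted p = 0.00903). *Dbh*, which converts dopamine to noradrenaline, had no call against V (-0.43, SE 0.49, limma adjusted p = 0.540), SA (-0.09, adjusted p = 0.942) or PV (-1.24, adjusted p = 0.162), and was higher in LA than in PA by 3.30 (adjusted p = 3.85e-05). Of the 5 autonomic neuron markers measured, *Dbh* among them, 3 were lower in LA than in PV and none was called against V or SA. Against PA, *Dbh* was higher in LA and *Stmn2* lower (-4.50, limma adjusted p = 2.85e-07). *Stmn2* stood at 5.06 in LA and 9.11 in PV, *Nefm* at 4.94 and 8.34, and *Snap25* at 4.86 and 8.13. The log2 of their summed signal was 8.73 to 9.31 in LA, 9.46 to 12.44 in PV and 9.05 to 9.23 in SA, and all 5 were well above background on every PV array, against 1 of 5 on every LA array. The part of these neuron markers in the differences of *Gnao1*, *Gch1* and *Dbh* from PV was not tested. *Th*, 240 kb beyond *Igf2* on chromosome 1, had a missing value and is not analysed here. *Drd2*, another D2-like receptor, falls outside the rule for named genes and was singled out after its values were seen. It is therefore described without a test. It was well above background on 3 of 4 LA arrays and on none of the V, SA or PV arrays, and was at least 1.39-fold higher in LA than in V, at least 1.08-fold higher than in SA and at least 1.31-fold higher than in PV. These bounds raise each dim array of V, SA or PV to the lowest signal that its scan called well above background. The LA arrays, including the dim array, are kept as read.

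*Abcg5* forms, together with *Abcg8*, the transporter that pumps plant sterols and cholesterol out of liver and gut cells. It lies on the plus strand of chromosome 6 from 15717936 to 15743376. In LA it was 7.25, 7.69, 7.11 and 7.40 in replicates 1 to 4, well above background on all. It was 5.23, 4.30, 3.50 and 3.44 in LV, 4.10, 4.01 and 4.23 in RV, and 3.62, 4.25, 4.47 and 3.83 in SA. PV held 3.27, 5.24, 3.26 and 4.47, and PA held 5.28, 4.32, 5.60 and 5.08. The nearest array outside LA, in PA, lay 1.51 below the lowest LA array. Outside LA the probe was mostly dim, being well above background on 1 array each of LV, RV, SA and PV and on 2 of PA. LA exceeded V by 3.25, SA by 3.32, PV by 3.30 and PA by 2.29. With each dim array raised to the lowest signal that its scan called well above background, these differences were 2.69, 2.40, 2.40 and 2.13. PA came next after LA with 5.07 ± 0.54 (SD, n = 4), and LV, RV, PV and SA followed between 4.04 and 4.12, each region from PA on overlapping the next.

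*Abcg8* is the gene for the partner subunit and is read from the opposite strand, with 205 bases between the starts of the 2 genes. It did not share the LA pattern. Its signal was 8.36, 7.87, 8.63 and 8.71 in LA, 9.33, 9.06, 8.73 and 8.51 in LV, and 8.34, 8.58 and 9.07 in RV. LA thus overlapped the ventricles, with a difference from V of -0.39 (SE 0.25, limma adjusted p = 0.248). The differences from SA (-0.25, SE 0.28), PV (-0.08, SE 0.28) and PA (-0.15, SE 0.28) gave adjusted p-values of 0.641, 0.901 and 0.691 in the same fit. These values rest on 1 of its 2 probes, since the other was dim at regional means of 2.07 to 2.81.

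The promoter window of *Abcg5* is shown because it serves both genes, whose windows share 295 of 300 bases on opposite strands, although only *Abcg5* was high in LA. It comes from RefSeq (GRCr8), plus strand, chr6:15717686-15717985. Capitals mark, in order, an NKX2-5 match on the minus strand, a TATA match and 2 GATA matches, which begin at -220, -158, -126 and -96 from the start of *Abcg5*.
Abcg5 window: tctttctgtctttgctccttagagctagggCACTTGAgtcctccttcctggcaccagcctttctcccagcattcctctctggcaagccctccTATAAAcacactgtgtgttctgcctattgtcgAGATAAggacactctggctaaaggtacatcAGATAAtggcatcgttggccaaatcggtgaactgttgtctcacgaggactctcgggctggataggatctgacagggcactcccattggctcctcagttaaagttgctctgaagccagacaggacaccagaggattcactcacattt

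Of 24 tested genes of sterol transport and synthesis, 5 were higher and 3 lower in LA than in V, 4 higher and 1 lower than in SA, and 2 higher and 3 lower than in PV. The list's median difference was 0.0094, 0.040 and 0.018 in these comparisons. Over 39 settings, the counts against SA were 2 to 6 higher and 0 to 3 lower, and those against PV 1 to 3 higher and 1 to 5 lower. *Nr1h3*, the sterol-sensing receptor LXR alpha that drives *Abcg5* and *Abcg8* in liver, was higher in LA than in V by 2.07 (SE 0.10, limma adjusted p = 6.37e-12), LA standing at 12.31 ± 0.10 (SD, n = 4) and V at 10.25 ± 0.21 (SD, n = 7). It had no call against SA (-0.04, SE 0.11, limma adjusted p = 0.874) or PV (0.07, SE 0.11, adjusted p = 0.767). *Apoe*, the apolipoprotein that carries cholesterol between cells, was higher in LA than in V by 1.04, than in SA by 1.33 and than in PV by 1.15 (limma adjusted p = 0.00143, 0.00161 and 0.00541). *Abcg4*, a sterol transporter of brain, was lower in LA than in PV (-2.20, SE 0.24, limma adjusted p = 7.90e-06), as was the lipoprotein receptor *Scarb1* (-0.83, adjusted p = 0.00152). Of the 5 neuron markers, *Stmn2*, *Nefm* and *Snap25* were lower in LA in the same comparison and *Chat* and *Dbh* were not called, and the part of these markers in the *Abcg4* difference was not tested. *Cyp27a1*, which hydroxylates cholesterol, was lower in LA than in V (-0.84, SE 0.07, limma adjusted p = 1.64e-08).

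*H19* lies on chromosome 1 from 207160175 to 207162851, 1331 kb beyond *Drd4*, and is followed after 81 kb by *Igf2*. Its signal was 15.50, 16.54, 14.69 and 14.24 in LA replicates 1 to 4. It was 12.70, 12.25, 11.07 and 11.67 in LV and 12.11, 12.54 and 12.25 in RV. SA held 10.71, 9.23, 9.16 and 9.57, PV held 10.21, 12.78, 9.05 and 9.47, and PA held 11.70, 9.68, 11.04 and 10.04. The probe was well above background on all 23 arrays, and every LA array was above every other array. The ventricles came next, with 12.30 ± 0.22 (SD, n = 3) in RV and 11.93 ± 0.71 (SD, n = 4) in LV, and SA was the lowest region with 9.66 ± 0.72 (SD, n = 4). LA exceeded V by 3.13, SA by 5.58, PV by 4.86 and PA by 4.63, which are 8.75-fold, 47.7-fold, 29.1-fold and 24.8-fold. PV replicate 2, at 12.78, stood above all ventricular arrays, while the other PV arrays were at or under 10.21. That array was the only PV array in row 1 of its slide, and LA exceeded PV by 2.03 within row 1 and by 6.96 within row 2.

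*Igf2*, the fetal growth factor gene whose enhancers *H19* shares, was high in LA too. It was 12.92, 14.19, 13.20 and 12.69 in LA, 12.14, 12.20, 11.32 and 11.89 in LV, and 11.73, 12.03 and 11.96 in RV. It was 10.91, 10.88, 10.44 and 10.98 in SA and 11.42, 12.56, 11.14 and 11.36 in PV, and 9.55 to 10.02 in PA. Replicate 2 held the highest LA value and the highest PV value for *H19* as well as for *Igf2*. *Igf2* was higher in LA than in V by 1.35 (SE 0.27, limma adjusted p = 5.38e-04), than in SA by 2.45 (SE 0.30, adjusted p = 2.67e-05), than in PV by 1.63 (SE 0.30, adjusted p = 0.00112) and than in PA by 3.54 (SE 0.30, adjusted p = 4.88e-09). Its other probe was dimmer, with regional means of 8.30 in LA, 8.12 in RV, 7.51 in LV, 7.31 in PV and 6.74 in SA, so the gap to RV was small there.

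*H19* contains the hairpin of miR-675 at chr1:207161752-207161835 on the minus strand (RefSeq, GRCr8), which is not analysed here. Its mature products are shown because they are what the transcript is processed to, with the seed (bases 2 to 8) in capitals.
rno-miR-675-5p: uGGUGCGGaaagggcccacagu
rno-miR-675-3p: uGUAUGCCcuaaccgcucagu

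Of 20 tested imprinted genes besides *H19*, 10 were higher and 2 lower in LA than in V, 7 higher and 4 lower than in SA, and 5 higher and 2 lower than in PV. The list's median difference was 0.43, 0.28 and 0.18 against the all-gene medians given above. With only the LA and PV arrays in the fit, 1 gene in place of 5 was higher in LA than in PV. Over 39 settings, lower genes numbered 0 to 4 against V, 2 to 5 against SA and 1 to 2 against PV. The members did not move alike. *Meg3*, a maternally expressed long non-coding RNA, was higher in LA than in V by 1.81 (SE 0.33, limma adjusted p = 2.55e-04) and lower than in SA (-2.44, adjusted p = 2.01e-04) and PV (-2.17, adjusted p = 5.97e-04). *Slc38a4*, an amino acid transporter gene, was higher in LA than in SA by 1.42 (limma adjusted p = 0.00274) and than in PV by 1.62 (adjusted p = 0.00101), and had no call against V (0.17, adjusted p = 0.665). *Snurf* and *Gnas*, the latter encoding the stimulatory G protein alpha subunit, were lower in LA than in V by small amounts (-0.37 and -0.23, limma adjusted p = 0.00288 and 0.00946).

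**Figure D2:**
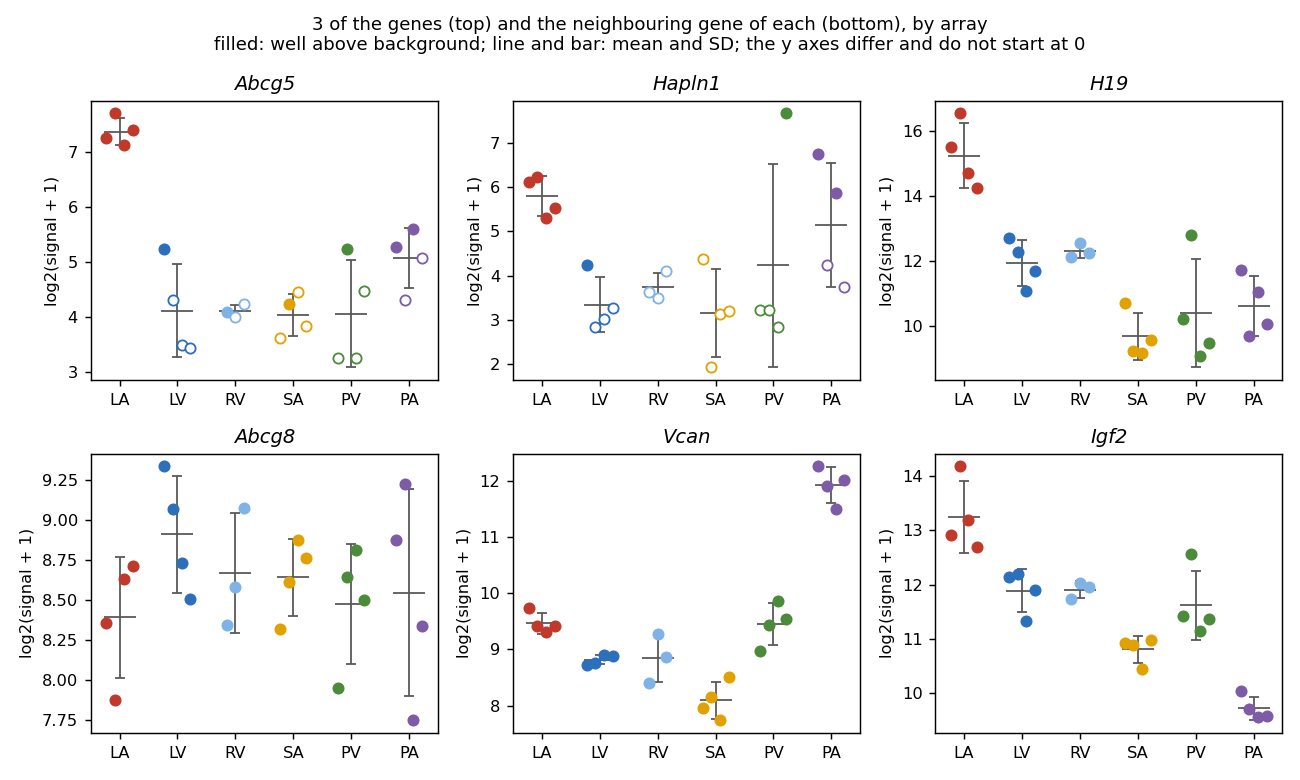
The upper panels plot log2(signal + 1) of *Abcg5*, *Hapln1* and *H19* on each array, the lower panels the neighboring genes *Abcg8*, *Vcan* and *Igf2*; filled points were well above background and the line and bar give the mean and SD. *Igf2* was highest in LA like *H19*, *Vcan* was highest in PA, and the LA arrays of *Abcg8* lay within the range of the others.

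*Hapln1* ties hyaluronan to proteoglycans such as versican and is known from cartilage and the developing heart valves. It lies on the plus strand of chromosome 2 from 22366967 to 22431709, and the versican gene *Vcan* follows on the minus strand from 22497035. It had 2 probes, and the higher was taken on each array. LA held 6.11, 6.23, 5.31 and 5.54, LV 4.24, 2.85, 3.01 and 3.26, and RV 3.63, 3.50 and 4.11. SA held 4.37, 1.93, 3.12 and 3.19, PV 3.22, 3.21, 2.85 and 7.66, and PA 6.73, 4.23, 5.86 and 3.73. *Hapln1* was well above background on all LA arrays, 1 LV array, 1 PV array, 2 PA arrays and no RV or SA array. LA was above V and SA on every array, being at least 2.59-fold above RV and at least 1.92-fold above SA, whose arrays were all dim. The high PV array, replicate 4, was high on 1 probe only, at 7.66 against 2.80 on the other. The other 3 PV arrays were dim. LA exceeded PV by 1.56 on average, and by 0.45 with each dim array raised to the lowest signal that its scan called well above background, so the size of this difference is not settled. PA replicates 1 and 3 were high on both probes, at 6.73 and 6.70 and at 5.86 and 5.79, and lay above the lowest LA array. LA exceeded PA by 0.66 on average, and by 0.13 with the dim arrays raised, and its range overlapped that of PA, so *Hapln1* was not high in LA alone. Both high PA arrays lay in row 1 of their slides, where LA was below PA (-0.65). In row 2 both PA arrays were dim, at 4.23 and 3.73, below the single LA array at 6.23.

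*Vcan* encodes the large proteoglycan that *Hapln1* binds. It was higher in LA than in V by 0.63 (SE 0.18, limma adjusted p = 0.0105) and than in SA by 1.37 (SE 0.21, adjusted p = 1.62e-04). It did not pass against PV (0.01, SE 0.21, limma adjusted p = 0.978) and was lower in LA than in PA (-2.45, SE 0.21, adjusted p = 3.98e-09).

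The hyaluronan and proteoglycan list had 21 tested genes. Against V, 8 were higher and 1 lower in LA, against SA 7 and 1, and against PV 4 and 1, with median differences of 0.32, 0.24 and 0.031. Over 39 settings, lower genes numbered 0 to 6 against V, 0 to 2 against SA and 1 to 3 against PV. *Hapln3*, a further link protein, was higher in LA than in V by 2.37 (SE 0.16, limma adjusted p = 1.33e-09), than in SA by 1.49 (adjusted p = 2.68e-05) and than in PV by 1.61 (adjusted p = 1.16e-05). *Bcan*, a proteoglycan best known from brain, was higher in LA than in V by 3.03 (SE 0.39, limma adjusted p = 4.04e-06), with 3 of the 7 ventricular arrays dim. It had no call against SA (0.18, adjusted p = 0.848 in limma) or PV (-0.97, adjusted p = 0.165). *Cemip2*, a hyaluronan-degrading surface enzyme, was higher in LA than in PV by 1.01 (limma adjusted p = 1.76e-05). *Ncan*, another proteoglycan of brain, was lower in LA than in V (-0.79, limma adjusted p = 0.0285). *Adamts1*, a protease that cuts versican, was lower in LA than in SA (-0.65, limma adjusted p = 0.0410) and PV (-1.64, adjusted p = 3.52e-05). Of the 5 smooth muscle markers, 3 were lower in LA in each of these comparisons (*Myh11*, *Actg2* and *Cnn1*) and *Smtn* and *Myocd* were not called, and the part of these markers in the *Adamts1* difference was not tested.

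*Sertm1* lies on the minus strand of chromosome 2 from 141237054 to 141256669. In LA it was 5.96, 5.48, 7.21 and 6.40. PV held 6.57, 6.59, 3.63 and 6.96, so 3 of 4 PV arrays were inside the LA range and replicate 3 was far below it. PA held 4.39, 5.02, 6.42 and 5.16 and SA 5.33, 3.78, 3.25 and 3.26. The ventricles held 4.04, 2.91, 3.11 and 3.30 in LV and 3.44, 3.47 and 2.80 in RV, and the probe was dim on all 7 of these arrays and on all SA arrays. LA was at least 3.41-fold above V and at least 2.65-fold above SA. LA exceeded PV by 0.32 and PA by 1.02 on average. With the dim arrays raised as above, the difference from PV was 0.018, and without PV replicate 3, which was dim, it was -0.45. *Sertm1* was therefore high in LA and PV and not in LA alone, with LA, PV, PA and SA overlapping from neighbor to neighbor in the order of means. The gene of the related protein, *Sertm2*, is not analysed here.

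The *Sertm1* window is shown because it was the only window of the 5 with a T-box match (capitals, on the strand opposite to the gene, beginning at -207). It comes from RefSeq (GRCr8), minus strand, chr2:141256559-141256858.
Sertm1 window: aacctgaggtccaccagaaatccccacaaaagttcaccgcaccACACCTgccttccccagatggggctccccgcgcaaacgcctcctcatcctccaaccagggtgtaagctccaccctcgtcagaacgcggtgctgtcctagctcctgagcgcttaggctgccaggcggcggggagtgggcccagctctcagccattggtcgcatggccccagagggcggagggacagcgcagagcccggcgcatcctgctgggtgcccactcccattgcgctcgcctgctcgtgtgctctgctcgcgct

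*Igfbpl1* lies on the minus strand of chromosome 5 from 64872056 to 64887461 and was the least separated of the 6 between LA and the ventricles. LA held 5.42, 4.64, 5.50 and 5.45, LV 4.53, 4.33, 5.17 and 4.44, and RV 4.11, 3.19 and 4.90. SA held 3.71, 4.06, 3.0 and 3.25, PV 3.10, 5.00, 3.10 and 2.81, and PA 4.46, 3.60, 4.41 and 3.19. It was well above background on 3 of 4 LA arrays, on 2 each of LV, RV and PA, and on 1 each of SA and PV. LA replicate 2, its only array in row 2, was below 1 LV, 1 RV and 1 PV array. LA exceeded V by 0.91, SA by 1.75, PV by 1.75 and PA by 1.33, and by 0.53, 0.44, 0.46 and 0.63 with the dim arrays raised as above. In every region the mean was higher in row 1 than in row 2: 5.46 and 4.64 for LA, 4.85 and 4.38 for LV, and 4.51 and 3.19 for RV. For SA the means were 4.06 and 3.32, for PV 5.00 and 3.0, and for PA 4.44 and 3.40. The probe was well above background on all 11 arrays of row 1 and on 0 of the 12 arrays of row 2, so the row 2 means are of dim signals. Within row 1 LA exceeded PV by 0.45, and within row 2 LA and PV were both dim and no size is given.

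**Figure D3:**
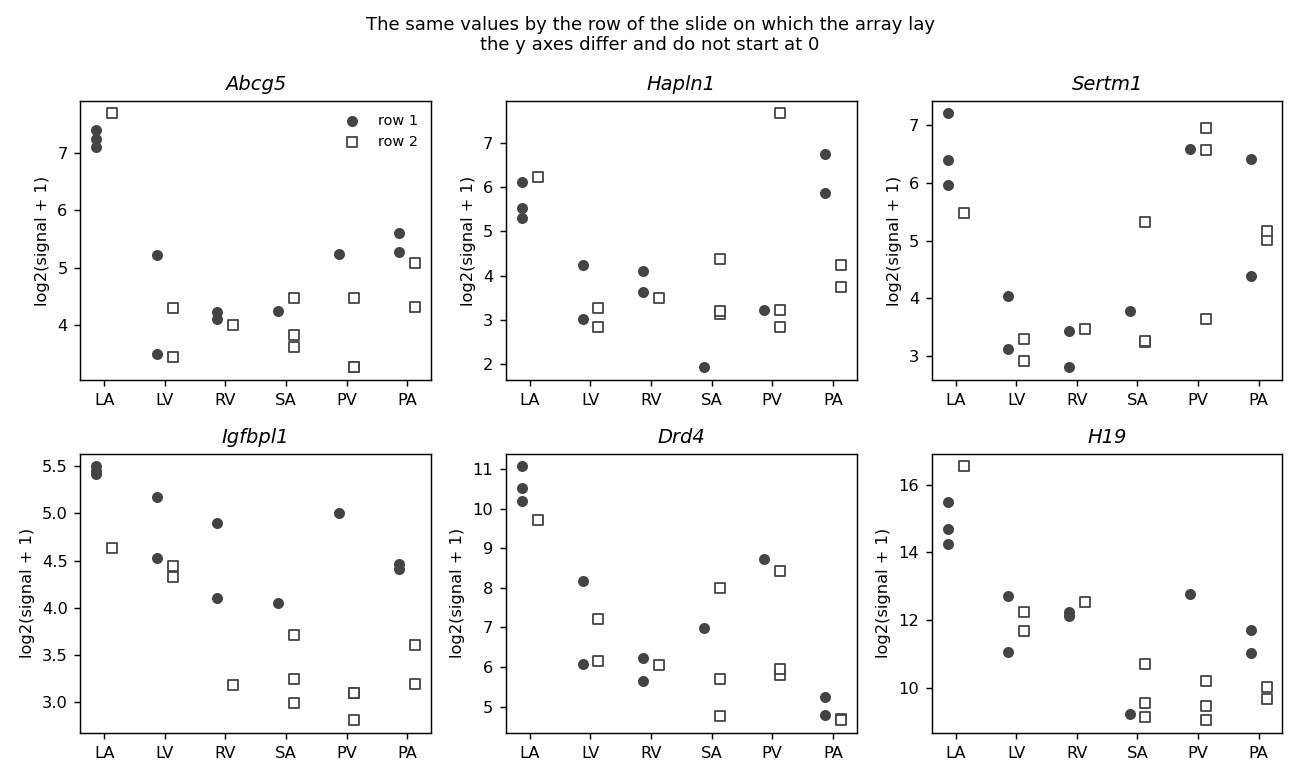
The same log2(signal + 1) values are plotted by the row of the slide, filled circles for row 1 and open squares for row 2. *Igfbpl1* was higher in row 1 in each of the 6 regions, and the PA arrays of *Hapln1* split by row, whereas the LA arrays of *Abcg5*, *Drd4* and *H19* stayed above the others in both rows.

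The IGF list had 22 tested genes. Of these, 11 were higher and 4 lower in LA than in V, 4 higher and 5 lower than in SA, and 3 higher and 5 lower than in PV, with median differences of 0.26, -0.13 and -0.13. Over 39 settings, lower genes numbered 2 to 7 against V, 3 to 6 against SA and 3 to 5 against PV, and higher genes 2 to 4 against SA. *Igfbp2*, a secreted IGF binding protein, was higher in LA than in V by 1.87 (SE 0.31, limma adjusted p = 8.88e-05) and than in SA by 1.05 (adjusted p = 0.0490), with no call against PV (0.24, adjusted p = 0.745). *Igfbp5*, of the same family, was higher in LA than in V by 1.73 (SE 0.19, limma adjusted p = 6.52e-07) and lower than in SA (-0.66, adjusted p = 0.0426) and PV (-1.07, adjusted p = 0.00213). *Esm1*, an endothelial proteoglycan with an IGF-binding domain, was lower in LA than in V (-1.84, limma adjusted p = 1.06e-04), SA (-1.53, adjusted p = 0.00547) and PV (-1.86, adjusted p = 0.00127). The part of the smooth muscle markers in the differences of *Igfbp5* and *Esm1* from SA and PV, and of the endothelial markers in that of *Esm1* from V, was not tested. *Stc2*, a secreted inhibitor of the proteases that free IGF, was lower in LA than in V (-1.02, limma adjusted p = 9.57e-05) and SA (-1.04, adjusted p = 0.00106). *Igf2bp2*, which binds the *Igf2* transcript, was higher in LA than in PV by 1.01 (limma adjusted p = 3.63e-05).

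**Figure D4:**
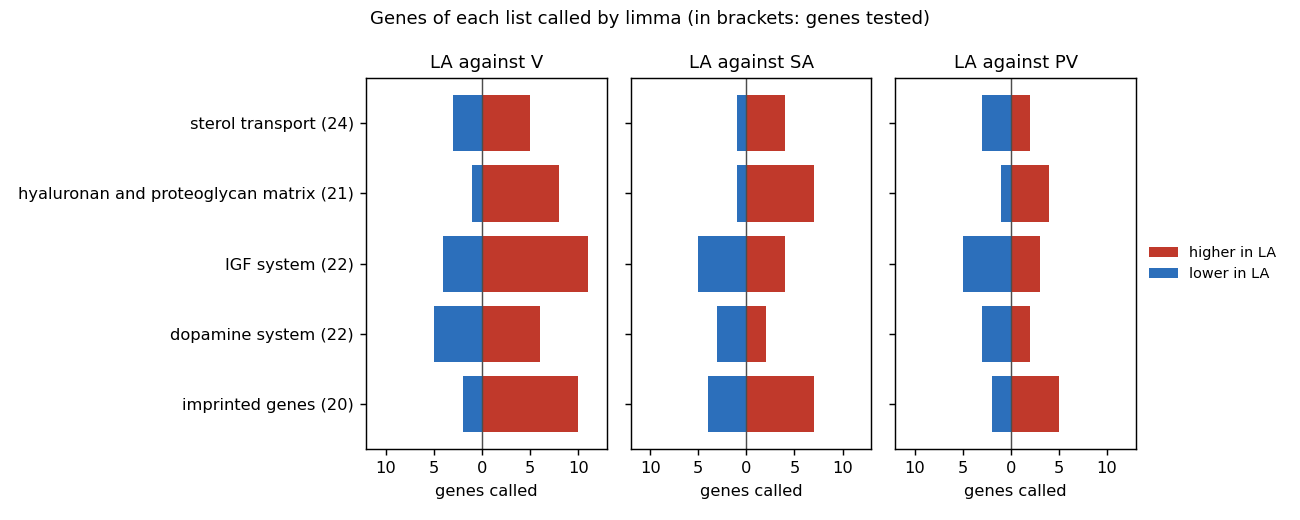
Bars count the genes of each list that limma called higher (right, red) or lower (left, blue) in LA than in V, SA or PV, with the number of genes tested in brackets. The IGF list had 11 genes higher and 4 lower in LA than in V, 4 higher and 5 lower than in SA, and 3 higher and 5 lower than in PV.

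Side by side, every LA array was above every ventricular array for 5 of the 6 genes, all but *Igfbpl1*. Over all 15879 genes this held for 12.6%, and since LA against V chose the genes nothing is read from the count. LA was above every SA array for 6 of 6, beside 12.1% of all genes, above every PV array for 3 of 6 (*Abcg5*, *Drd4* and *H19*), beside 9.5%, and above every PA array for 4 of 6, beside 23.5%. The description "highest in left atrium only" was thus met on every array by *Abcg5*, *Drd4* and *H19*. *Hapln1*, *Sertm1* and *Igfbpl1* had the highest mean in LA, with arrays of PV, PA or the ventricles reaching into the LA range. All comparisons with LA share its 4 arrays.

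**Figure D5:**
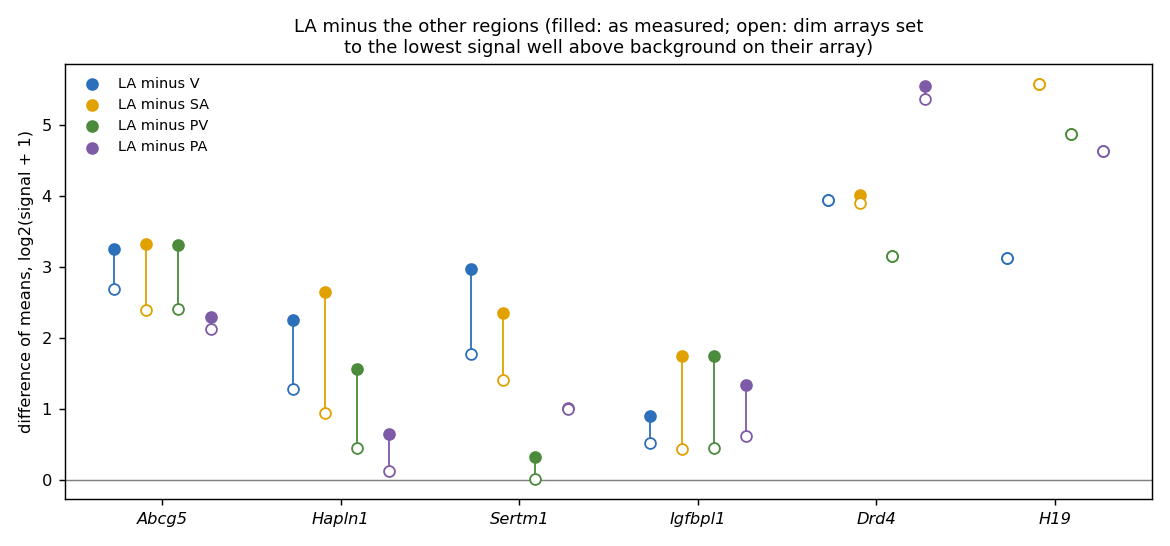
Filled points give the mean of LA minus the mean of V, SA, PV or PA on the log2(signal + 1) scale, and open points the same with each dim array raised to the lowest signal that its scan called well above background (filled points are hidden where nothing changed). *Drd4* and *H19* kept differences of 3.13 or more in all 4 comparisons, while those of *Hapln1* and *Igfbpl1* were at or under 1.29 after the setting.

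LV against RV was the comparison that had no part in choosing the genes. None of the 6 was called by limma, beside 85 of 15879 genes called (0.535%), and none had an unadjusted p under 0.05, beside 1728 genes (10.9%), so 0 of 6 is near the background. *Drd4* differed by 0.93, LV minus RV (SE 0.74, limma adjusted p = 0.741), with LV at 6.08 to 8.16 and RV at 5.64 to 6.23. *H19* differed by -0.37 (SE 0.73, limma adjusted p = 0.927). *Igfbpl1* differed by 0.55 (SE 0.48, limma adjusted p = 0.774), although 3 of the 7 ventricular arrays were dim. With 1 array left out, these differences ran from 0.51 to 1.20 for *Drd4*, -0.63 to -0.09 for *H19* and 0.11 to 0.97 for *Igfbpl1*. *Abcg5* was well above background on 2 of these 7 arrays, *Hapln1* on 1 and *Sertm1* on 0, so for these 3 genes the fit set mostly dim signals against each other and no size of a difference is given. With 4 and 3 arrays and these standard errors, differences of 1 and well above 1 on the log2 scale could be missed for *Drd4*, *H19* and *Igfbpl1* as well.

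For each of the 6, the 3 genes of most similar pattern were taken by Pearson's r over the 23 arrays among 11944 genes well above background on every LA array. All points share arrays, regions and scaling, so r is a description. For *Abcg5*, *Hapln1*, *Sertm1* and *Igfbpl1* it rests in large part on dim signals. *Igfbpl1* was well above background on all 11 arrays of row 1 and on 0 of the 12 arrays of row 2. *Abcg5* was most like *Ttc17* (r = 0.929), the matrix gene *Hmcn1* (0.866) and the sodium-proton exchanger *Slc9a9* (0.864). *Ttc17* differed little in size between regions, at 11.27 in LA and 10.87 to 11.01 elsewhere. *H19* was most like *Gpr182* (r = 0.935), *Hmcn1* (0.926) and *Fpr1* (0.911), and *Hmcn1* stood at 9.05 in LA and between 6.56 (SA) and 7.62 (PA) elsewhere. *Drd4* was most like *Ppp4r4* (r = 0.856), *Klhl6* (0.854) and the iron regulator *Hfe* (0.844), and *Ppp4r4* was also highest in LA, at 8.64, and lowest in PA, at 4.50. *Sertm1* was most like *Scg5* (r = 0.869), a chaperone of neuroendocrine secretory granules that stood at 8.86 in LA, 8.28 in PV, 8.05 in PA, 7.68 in SA, 7.22 in RV and 7.05 in LV, then *Tjap1* (0.825) and *St7l* (0.782). *Hapln1* was most like the heparan sulfate enzyme *Hs3st1* (r = 0.783), *Nsg1* (0.755) and *6330403K07Rikl* (0.751), and *Nsg1* stood at 9.76 in LA and 8.90 in PA against 6.09 in LV. *Igfbpl1* was most like *Med6* (r = 0.801), *Taf9b* (0.793) and *Gpr182* (0.779), of which *Med6* varied only from 11.45 to 11.68 between regions.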

How the data were processed

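Cy3 intensity was measured on 23 rat 60K arrays of 6 regions. The authors deposited Agilent Feature Extraction 11.0.1.1 files with background-subtracted, detrended processed intensity per spot, and a table of normalized intensity. On every array the latter was the processed intensity times 1 factor (0.881 to 1.52), within 2% for 99.57% to 99.82% of probes. From the processed intensity, spots marked non-uniform were left out and spots of a probe averaged. Following the study's methods, 158 of 45598 probes with a missing value were removed and arrays scaled to a common 90th percentile. Log2(signal + 1) was taken, with the highest probe per gene. Probes were named through their RefSeq accessions (21109 probes, 16544 genes), and genes above 4 on at least 1 array (15879) were fitted with limma 3.58.1 in R 4.3.3, 1 mean per region, Benjamini-Hochberg adjusted over all genes, called at 0.05. The code was tested on simulated data. No spot was saturated, and the number of arrays limits the precision. V is the mean of LV and RV. The 6 genes and the lists were chosen with earlier results of these data known. Named list genes come from the 2 with the largest called difference per list, comparison and direction, detected on all arrays of the higher group. Not every gene that met this rule is named. Neighbors and partners are named besides. Promoter and microRNA sequences are RefSeq's (GRCr8). Alternatives were another percentile, quantile normalization, the deposited normalized intensity, normexp (offset 50) on the median intensity, the only unsubtracted summary used here, a pseudocount of 16, other probe and filter rules, blocks for slide, row or replicate number, a variance trend, only the arrays compared, and each array left out. After the data were seen, 2 were added: dim arrays raised to the lowest signal called well above background, and population outlier spots left out.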

Additional observations from a re-analysis of the deposited data

Results flagged for a closer look

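In each region of 4 arrays, an array was marked when its gap to the nearest other array exceeded 0.829 of the range, which chance does in about 1 of 20 groups. Of 30 groups, 5 regions for each of the 6 genes, 4 were marked. *Hapln1* in PV replicate 4 was 7.66, with the others at 2.85 to 3.22. *Sertm1* in PV replicate 3 was 3.63, with the others at 6.57 to 6.96. *Igfbpl1* in LA replicate 2 was 4.64, with the others at 5.42 to 5.50. *Igfbpl1* in PV replicate 2 was 5.00, with the others at 2.81 to 3.10. Both *Igfbpl1* arrays were the only 1 of their region in their row of the slide, and the part of the row in these values was not tested.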

How the results depend on the processing

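Of 1297 values of the 6 genes under the alternatives, 64 were marked as moved by more than the spread between replicates. Values of LV against RV, except those within a slide or row, were judged by their call and not by this spread. In addition, 2 differences larger than that spread turned sign. They were *Hapln1* in LA against PV within slide 2 (-1.48), which holds the high PV array, and *Sertm1* in LA against PA within slide 2 (-0.70). LA minus the other regions was above 0 in all 175 values each of *Abcg5*, *Drd4* and *H19* and all 171 of *Igfbpl1*, in 172 of 175 of *Hapln1* and in 169 of 175 of *Sertm1*, which the choice of the genes partly fixes. Leaving out an array of a region outside a comparison does not change the difference. Many of these values, and of the 1297, therefore repeat the same number. *Igfbpl1* failed the filter that asks for detection on all arrays of at least 1 region. Normexp made the differences of dim genes smaller, with LA minus V at 1.37 for *Abcg5*, 0.55 for *Hapln1*, 0.77 for *Sertm1* and 0.09 for *Igfbpl1*. None of the 6 was called in LV against RV under any alternative, with a lowest limma adjusted p of 0.173. The 85 genes called there became 138 with the filter for well above background, 138 with a variance trend and 13 with only the LV and RV arrays, and 42 to 105 with 1 array left out, where leaving out RV replicates 2 and 1 gave 42 and 46 and leaving out LV replicate 2 gave 53. LA against SA rose from 2464 to 4185 genes with normexp, LA against PV fell from 2187 to 1297 with only those arrays, and 88 of 1140 list counts moved by over 1.5 times, including the imprinted genes higher in LA than in PV, from 5 to 1 with only those arrays. Of 55 same-numbered pairs, 13 had deviations that correlated over 0.1 (-0.38 to 0.32). Every pair did so for 1 of 15 pairs of regions, LV and PA (0.13 to 0.32), whose same-numbered arrays lay on the same slide and row and which are not compared here. For LV and RV, and for LA and any other region, not every pair did so. With so few pairs this cannot exclude that same-numbered samples shared an animal. With the replicate block, limma called 80 genes in LV against RV and none of the 6 (adjusted p 0.699 to 0.992). Levels near the lowest signals well above background limit *Abcg5*, *Hapln1*, *Sertm1* and *Igfbpl1*. These lowest signals were lower in row 1 of the slides than in row 2.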
